A study of Mus musculus with 6 samples.

Results

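The mouse cytochrome P450 genes were followed in large intestinal epithelium that lacked or retained the histone deacetylase HDAC3. Members were all genes whose symbol starts with Cyp and a digit, apart from Cyp51, read from probe sets that name exactly 1 gene, with the probe set of highest mean signal kept for each gene. This gave 85 of the 19533 genes measured, in 14 CYP families and with 1 probe set each. CYP2 had 45 members, CYP4 15, CYP3 6, and CYP1, CYP11 and CYP26 3 each. CYP7 and CYP27 had 2 members each, and CYP8, CYP17, CYP20, CYP21, CYP39 and CYP46 had 1 each. RefSeq lists 82 of the 85 as protein-coding and 3 as transcribed pseudogenes, Cyp2d13, Cyp2d37-ps and Cyp4f41-ps.

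All 6 mice were germ-free C57BL/6 animals, and the profiled cells were live EpCAM+ epithelial cells of the large intestine. The control group was 3 HDAC3FF mice, in which FF is the usual sign for a gene flanked by loxP sites, and the other group was 3 HDAC3ΔIEC mice, with the knockout restricted to intestinal epithelial cells. Each mouse gave 1 Affymetrix array. The promoter that drives Cre, the sex and the age of the mice are not stated in the labels, and the absence of a microbiota was common to both groups, so no array shows the effect of bacteria. The comparison asks which P450 transcripts differ with epithelial HDAC3 when no bacteria are present.

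Cytochrome P450 enzymes are haem proteins, most of them in the endoplasmic reticulum, that insert 1 atom of molecular oxygen into a lipophilic substrate with electrons passed on by P450 oxidoreductase. Members of the CYP1, CYP2 and CYP3 families mainly handle drugs, dietary compounds and other foreign chemicals. The CYP4 family and the Cyp2j enzymes oxidise fatty acids and eicosanoids. Most of the remaining families make or break down steroids, bile acids, oxysterols, vitamin D and retinoic acid. The gut epithelium is a site of first-pass metabolism, and nuclear receptors such as PXR and HNF4 control many P450 promoters. HDAC3 is the catalytic subunit of the NCoR and SMRT corepressor complexes, which such receptors recruit.

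The sequences that follow are the 250 bases before the annotated start of 5 members, written 5′ to 3′ on the gene's own strand, from RefSeq in build GRCm38.p6. They are shown because Cyp2c68 and Cyp2d26 were the members that passed the test, Cyp2c67 is the neighbour of Cyp2c68 with a closely similar promoter, and Cyp2c65 and Cyp2c55 lie in the same gene cluster with other responses. Windows lie at chr19:39741102-39741351 (minus strand), chr19:39649043-39649292 (minus strand), chr19:39060756-39061005 (plus strand), chr19:39006769-39007018 (plus strand) and chr15:82794246-82794495 (minus strand). Capitals mark the HNF4-bound core CAAAGTCCA and the TATA box letters TATAAA on either strand, so that TATAAA on the opposite strand reads TTTATA.
Cyp2c68: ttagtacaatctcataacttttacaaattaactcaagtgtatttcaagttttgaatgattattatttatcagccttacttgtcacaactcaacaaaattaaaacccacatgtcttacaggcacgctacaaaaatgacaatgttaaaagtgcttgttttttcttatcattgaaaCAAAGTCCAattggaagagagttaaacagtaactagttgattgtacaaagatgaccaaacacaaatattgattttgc
Cyp2c67: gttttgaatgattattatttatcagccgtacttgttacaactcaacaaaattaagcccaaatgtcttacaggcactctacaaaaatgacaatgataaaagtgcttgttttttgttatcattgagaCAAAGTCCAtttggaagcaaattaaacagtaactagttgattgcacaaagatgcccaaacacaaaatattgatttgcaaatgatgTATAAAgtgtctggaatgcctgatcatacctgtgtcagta
Cyp2c65: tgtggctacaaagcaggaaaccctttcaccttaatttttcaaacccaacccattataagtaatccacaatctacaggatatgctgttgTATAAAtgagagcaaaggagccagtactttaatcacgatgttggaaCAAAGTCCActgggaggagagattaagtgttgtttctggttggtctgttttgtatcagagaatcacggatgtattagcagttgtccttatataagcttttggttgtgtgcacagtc
Cyp2c55: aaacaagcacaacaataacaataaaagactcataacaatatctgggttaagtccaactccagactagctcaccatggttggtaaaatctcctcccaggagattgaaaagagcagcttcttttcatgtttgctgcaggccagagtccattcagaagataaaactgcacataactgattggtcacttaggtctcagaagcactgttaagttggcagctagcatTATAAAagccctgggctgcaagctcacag
Cyp2d26: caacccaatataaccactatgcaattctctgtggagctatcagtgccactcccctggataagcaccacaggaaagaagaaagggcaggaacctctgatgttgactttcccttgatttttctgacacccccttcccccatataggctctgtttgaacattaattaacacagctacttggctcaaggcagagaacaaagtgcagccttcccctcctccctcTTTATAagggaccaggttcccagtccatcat

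Exact letters were searched on both strands in the same windows of all 32851 promoters of the RefSeq table, and 62 of the 85 P450 genes had an entry there. Shares over all promoters count each entry, whereas a P450 gene counted once if any of its entries matched, so the units differ. The HNF4 core CAAAGTCCA was found in 0.384% of all promoters and in 7 of the 62, namely Cyp2c65, Cyp2c67, Cyp2c68, Cyp2c70, Cyp3a11, Cyp3a16 and Cyp8b1. TATAAA was found in 12.4% of all promoters and in 23 of the 62. AGGTCA, the half-site of many nuclear receptors, was found in 14% and in 15 of the 62, and GCGTG, the core bound by the aryl hydrocarbon receptor, in 28.2% and in 14 of the 62, Cyp1a1 among them. None of these 4 motifs contains another on either strand. A match is a description of the letters and not of binding. In Cyp2c68 the HNF4 core ended 68 bases before the start, and its window held no TATAAA. Cyp2c67 had the core at 116 bases and TATAAA at 34, so the annotated starts of these genes are offset. In Cyp2c67 the TATAAA lies farther past the core than the Cyp2c68 window reaches. The matching site of Cyp2c68 was therefore not searched. Over the 204 aligned columns where their windows overlap, the promoters of Cyp2c68 and Cyp2c67 were 91.7% identical. Aligned end to end, the windows of Cyp2c68 were 63.1% identical to those of Cyp2c67 and 48.1% to those of Cyp2c65. The value for Cyp2c67 includes the offset of the starts.

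The arrays had median signals between 5.30 and 5.35 on the log2 scale, and single signals between 2.54 and 13.55. Hdac3 signals averaged 7.12 ± 0.21 in HDAC3FF against 6.27 ± 0.29 in HDAC3ΔIEC (SD, n = 3 each), without overlap, and the difference of -0.86 ± 0.17 (SE) had a limma adjusted p of 0.0937. Whether its probe set lies within the deleted segment could not be checked without probe sequences. The cause of the remaining signal was not tested. All 8 epithelial markers were above the array median on every array, with Krt8 and Krt19 the brightest (log2 fold changes 0.26 ± 0.08 and 0.30 ± 0.09, SE), and Epcam at -0.06 ± 0.10. In limma 0 of the 8 passed, and 4 had an unadjusted p under 0.05. With 3 arrays per group the number of mice limits the precision, and the smallest exact permutation p for 1 gene is 0.1.

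Most P450 genes gave low signals in these cells. The median of each array, taken over all 19533 genes, served as the reference level, since the deposited values mark no background. On all 6 arrays 24 of the 85 P450 genes (28.2%) were above it, against 46.5% of all genes, 3 were above it on some arrays and 58 on none (68.2%, against 46.6% of all genes). The same 24 had a mean signal above the mean of the array medians, 5.33. Signals of different probe sets do not rank the genes by abundance, because each probe set has its own affinity.

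The 24 came from few branches of the family. They included 9 of 10 Cyp2d genes and 3 of 13 Cyp2c genes (Cyp2c55, Cyp2c65 and Cyp2c66), with Cyp2j6, Cyp2f2 and Cyp2s1 the remaining CYP2 members. CYP4 gave 5 of 15, which were Cyp4f13, Cyp4f14, Cyp4f16, Cyp4f40 and Cyp4b1. Cyp3a13 was the only 1 of 6 CYP3 genes, and Cyp20a1, Cyp27a1 and Cyp39a1 completed the set. No member of CYP1, CYP7, CYP8, CYP11, CYP17, CYP21, CYP26 or CYP46 was above the median on any array. Cyp2c68 was above it on the 3 HDAC3FF arrays alone, Cyp2w1 on 2 arrays and Cyp4f41-ps on 3.

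Between the genotypes, 1 P450 gene rose and 1 fell. Cyp2d26, a Cyp2d enzyme, rose 1.73-fold, and Cyp2c68, a Cyp2c enzyme, fell by 1.56 on the log2 scale. These are 2 of 85 (2.35%) at a limma adjusted p under 0.05, where the share over all genes was 0.701% (0.369% higher and 0.333% lower, 137 of 19533 in all). At an unadjusted p under 0.05 the count was 14 of 85, or 16.5%, against 11.2% of all genes. The 3 mice of one genotype lay wholly above or below the 3 of the other for 17 P450 genes (20%), against 16.2% of all genes. Of these, 10 were higher in HDAC3ΔIEC and 7 lower, where all genes gave 8.45% higher and 7.7% lower. The median log2 fold change was 0.03 over the 85 and 0.01 over all genes, and 54 of the 85 were positive (63.5%, against 53.5%). The excess lay in the 58 genes below the median on every array, 72.4% positive against 57.9% of all such genes. Of the 24 above it on every array, 45.8% were positive, against 49.7%. In RNA pooled over many cells, fewer cells of a type and less RNA per cell cannot be told apart.

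**Figure D1:**
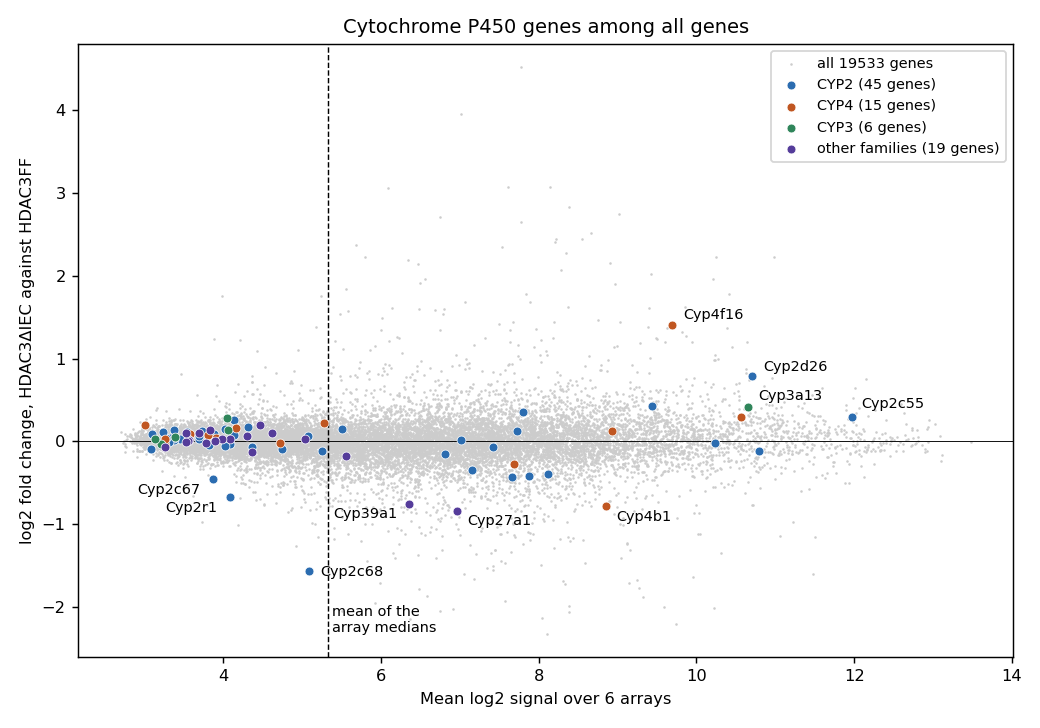
Each point is 1 gene, with its mean log2 signal over the 6 arrays on the x axis and its log2 fold change between HDAC3ΔIEC and HDAC3FF on the y axis, and colours mark the CYP families over all genes in grey. Of the 58 members below the array median throughout, on the left, 56 lie within 0.3 of 0, with Cyp2r1 (-0.68) and Cyp2c67 (-0.46) below them. Cyp2c68 (-1.56) has the most negative value and Cyp4f16 (1.41) and Cyp2d26 (0.79) the most positive.

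Among the 24 genes above the median, signals moved both ways. Called genes were 1 of 24, against 1.15% of all 9078 genes above the median on every array. Groups did not overlap for 8 of the 24 (33.3%, against 19.5%), 5 higher (all such genes 9.04%) and 3 lower (10.5%), and 8 had an unadjusted p under 0.05, against 17.2%. Their median absolute log2 fold change was 0.32, against 0.14 for all such genes, and 11 were positive and 13 negative. Among the 58 genes below the median on every array, 0 passed limma's adjusted threshold, against 0.0879% of all such genes. Of these 58, 5 had an unadjusted p under 0.05, against 3.85%, and 8 had groups that did not overlap (13.8%, against 11.9%).

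Both genes that passed were members of CYP2, and no CYP3 gene passed. These families were described above as mainly handling foreign compounds. Cyp2c68 read 6.13, 6.01 and 5.47 in the HDAC3FF mice and 4.38, 4.05 and 4.50 in the HDAC3ΔIEC mice. Every HDAC3ΔIEC value lay below every HDAC3FF value, and only the HDAC3FF values were above the array medians. The means were 5.87 ± 0.35 and 4.31 ± 0.24 (SD, n = 3 each), a 2.95-fold lower signal (log2 fold change -1.56 ± 0.20, SE, limma adjusted p = 0.0279). With 1 array left out at a time, it passed without HDAC3FF replicate 3 and not without any of the other 5 arrays, with log2 fold changes from -1.76 to -1.43. Its adjusted p ran from 0.00398 to 0.134 over the 13 of 14 alternatives that give it a value. The filter on dim genes removes it, since its mean over both groups is below the array median, and Cyp2d26 and Cyp4f16 passed there.

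The genes beside Cyp2c68 are close copies, and probes were not compared with their transcripts here, so its signal is uncertain as that of 1 gene. Chromosomal order in the cluster is Cyp2c55, Cyp2c65, Cyp2c66, Cyp2c29, Cyp2c39, Cyp2c38, Cyp2c67, Cyp2c68, Cyp2c40, Cyp2c69, Cyp2c37, Cyp2c54, Cyp2c50 and Cyp2c70. Cyp2c67, the immediate neighbour, read 4.30, 4.01 and 3.998 in HDAC3FF and 3.54, 3.57 and 3.83 in HDAC3ΔIEC, below the array median throughout. Its groups did not overlap either, but the difference of -0.46 ± 0.12 (SE) missed the threshold (limma adjusted p = 0.187). A separate probe set that names Cyp2c40, Cyp2c67, Cyp2c68 and Cyp2c69 together read 6.54, 6.51 and 5.85 in HDAC3FF and 5.29, 5.03 and 5.34 in HDAC3ΔIEC. It had a log2 fold change of -1.08 ± 0.20 (SE), without overlap and with a limma adjusted p of 0.0876 over all 24939 probe sets. The promoter windows of these genes are alike too, with 93.5% identity between Cyp2c68 and Cyp2c69 over 248 aligned columns and 95% between Cyp2c68 and Cyp2c40 over 218.

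Genes at the start of that order gave other values. Cyp2c55, an intestinal Cyp2c enzyme that oxidises arachidonic acid, read 11.80, 11.70 and 11.98 in HDAC3FF and 12.05, 12.15 and 12.16 in HDAC3ΔIEC. The HDAC3ΔIEC signals were all higher, by 0.30 ± 0.10 (SE) on the log2 scale, which is short of the threshold (limma adjusted p = 0.288). Cyp2c65, also an intestinal Cyp2c enzyme, read 10.42, 10.06 and 10.25 in HDAC3FF and 10.15, 10.19 and 10.36 in HDAC3ΔIEC, fully overlapping, with a log2 fold change of -0.01 and a 95% confidence interval from -0.28 to 0.26. The Cyp2c65 window printed above holds the same HNF4 core as that of Cyp2c68. Cyp2c66 differed by 0.02 ± 0.17. Windows of Cyp2c65 and Cyp2c66 were 87.4% identical over 238 aligned columns. The other 8 Cyp2c genes, Cyp2c23, Cyp2c29, Cyp2c37, Cyp2c38, Cyp2c39, Cyp2c50, Cyp2c54 and Cyp2c70, were below the median throughout, with log2 fold changes between -0.09 and 0.11.

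**Figure D2:**
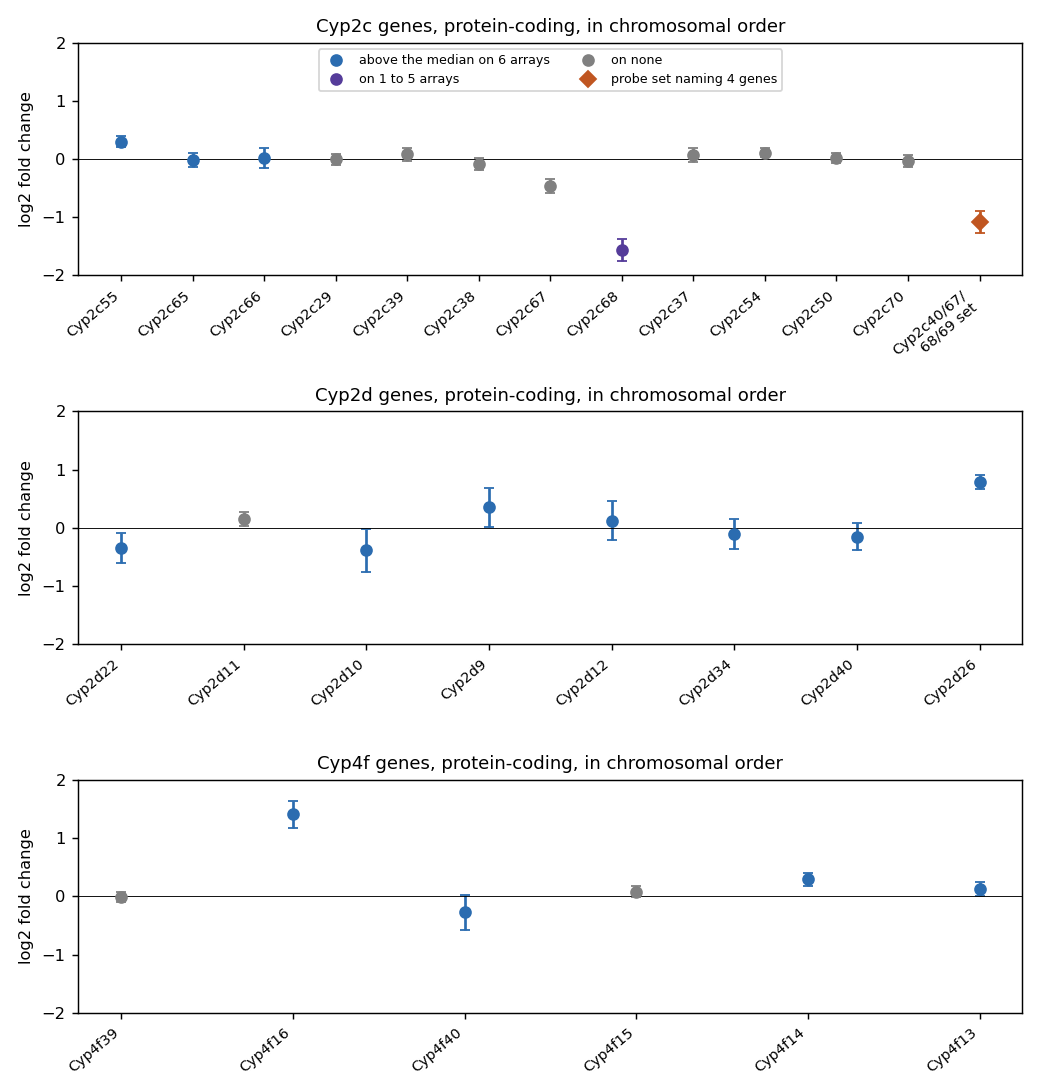
Points are log2 fold changes, HDAC3ΔIEC against HDAC3FF, with bars of 1 SE, for protein-coding Cyp2c, Cyp2d and Cyp4f genes placed in chromosomal order within their clusters, and colour shows on how many arrays the gene was above the array median. In the upper panel Cyp2c68 (-1.56), Cyp2c67 (-0.46) and the probe set naming 4 genes (-1.08, diamond) lie below the other genes of the cluster, in the middle panel Cyp2d26 (0.79) and in the lower panel Cyp4f16 (1.41) lie above their neighbours.

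The Cyp2d genes, whose human counterpart CYP2D6 handles many drugs, were above the array median on every array with 1 exception, and 1 of them rose. Cyp2d26 read 10.11, 10.54 and 10.29 in HDAC3FF and 11.13, 11.12 and 11.05 in HDAC3ΔIEC. The groups did not overlap, and the HDAC3ΔIEC mice lay close together. Means of 10.31 ± 0.21 and 11.10 ± 0.04 (SD, n = 3 each) gave a difference of 0.79 ± 0.12 (SE, limma adjusted p = 0.0427). It passed without HDAC3FF replicate 2 or replicate 3 and not without HDAC3FF replicate 1 or any 1 of the HDAC3ΔIEC arrays, and its adjusted p ran from 0.0212 to 0.199 over all alternatives. Its neighbours did not follow it past the threshold. Cyp2d34 read 10.54, 10.73 and 11.30 in HDAC3FF and 10.89, 11.07 and 10.27 in HDAC3ΔIEC, overlapping, with a difference of -0.11 ± 0.26 (log2, SE) and a limma adjusted p of 0.940. This value was positive, at 0.11 and 0.12, without replicate 3 of HDAC3FF or of HDAC3ΔIEC.

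The other Cyp2d genes had wide errors. Cyp2d9 differed by 0.35 ± 0.34 and Cyp2d12 by 0.12 ± 0.34 (log2, SE), while Cyp2d10 stood at -0.39 ± 0.37, Cyp2d13 at -0.43 ± 0.26, Cyp2d22 at -0.35 ± 0.26, Cyp2d40 at -0.15 ± 0.24 and Cyp2d37-ps at -0.07 ± 0.23. The value of Cyp2d13 was -0.12 without HDAC3ΔIEC replicate 3. Cyp2d11, the 1 Cyp2d gene below the median, differed by 0.15 ± 0.12. Members of this cluster are close in sequence, and how far probes cross-hybridise among them is unknown here.

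The width of these errors was shared by the Cyp2d genes array by array. HDAC3FF replicate 1 gave the lowest of the 3 control signals for 9 of the 9 Cyp2d genes above the median, and HDAC3ΔIEC replicate 3 the lowest of its group for 7, all but Cyp2d37-ps and Cyp2d40. For all 9078 genes above the median these arrays were lowest for 39.4% and 43.7%. The median deviation of the 9 genes from their group means was -0.37 in HDAC3FF replicate 1 and 0.40 in HDAC3FF replicate 3. It was 0.37 in HDAC3ΔIEC replicate 2 and -0.47 in HDAC3ΔIEC replicate 3. All genes above the median had median deviations between -0.05 and 0.05 on the 6 arrays. The alike array medians keep that range narrow, so it does not show what 9 related genes would give.

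**Figure D3:**
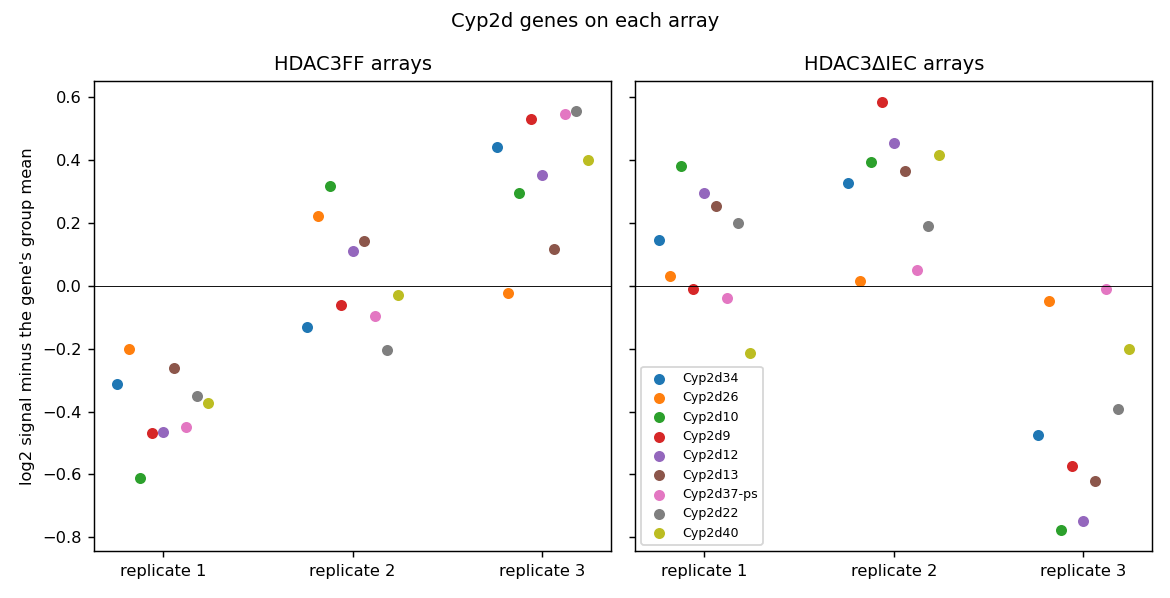
For each of the 9 Cyp2d genes above the array median, the plot shows the log2 signal minus the gene's mean in its group on the 3 HDAC3FF arrays (left) and the 3 HDAC3ΔIEC arrays (right), with 1 colour per gene. All 9 genes are below 0 and lowest on HDAC3FF replicate 1, and most are lowest on HDAC3ΔIEC replicate 3.

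Cyp3a13, an intestinal CYP3A enzyme of the mouse, read 10.38, 10.23 and 10.72 in HDAC3FF and 10.85, 10.85 and 10.88 in HDAC3ΔIEC. The groups did not overlap, and the difference of 0.42 ± 0.13 (SE, log2) did not pass (limma adjusted p = 0.257). Without HDAC3FF replicate 3 it was 0.56 and passed, at an adjusted p of 0.0352. The other 5 CYP3 genes, Cyp3a11, Cyp3a16, Cyp3a25, Cyp3a44 and Cyp3a57, gave mean signals of 3.13 to 4.06 and did not pass, with Cyp3a44 showing the largest value, 0.28 ± 0.12. A probe set that names Cyp3a41a, Cyp3a41b and Cyp3a44 together differed by 0.61 ± 0.29 (limma adjusted p = 0.535 over all probe sets). Cyp3a11 is the main PXR-induced CYP3A gene of mouse liver, and it differed by -0.03 ± 0.10.

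Cyp2s1, an epithelial P450 that the aryl hydrocarbon receptor can induce, read 7.82, 8.26 and 8.17 in HDAC3FF and 7.80, 7.73 and 7.46 in HDAC3ΔIEC. The HDAC3ΔIEC signals were lower without overlap, narrowly at the border, with a difference of -0.42 ± 0.14 (log2, SE, limma adjusted p = 0.316). Cyp1a1, Cyp1a2 and Cyp1b1, the classical targets of that receptor, had mean signals of 3.52 to 3.90 and log2 fold changes between -0.004 and 0.004. Cyp2f2, a lung enzyme that activates naphthalene, differed by 0.15 ± 0.09, and Cyp2w1, known from the fetal gut and from colon tumours, by -0.12 ± 0.11. The remaining foreign-compound genes were dim and did not pass. They were Cyp2a12, Cyp2a22, Cyp2ab1, Cyp2e1, Cyp2g1, Cyp2t4 and the 5 Cyp2b genes Cyp2b9, Cyp2b10, Cyp2b13, Cyp2b19 and Cyp2b23, with log2 fold changes from -0.06 to 0.26, the largest for Cyp2t4 (0.26 ± 0.10, without overlap).

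**Figure D4:**
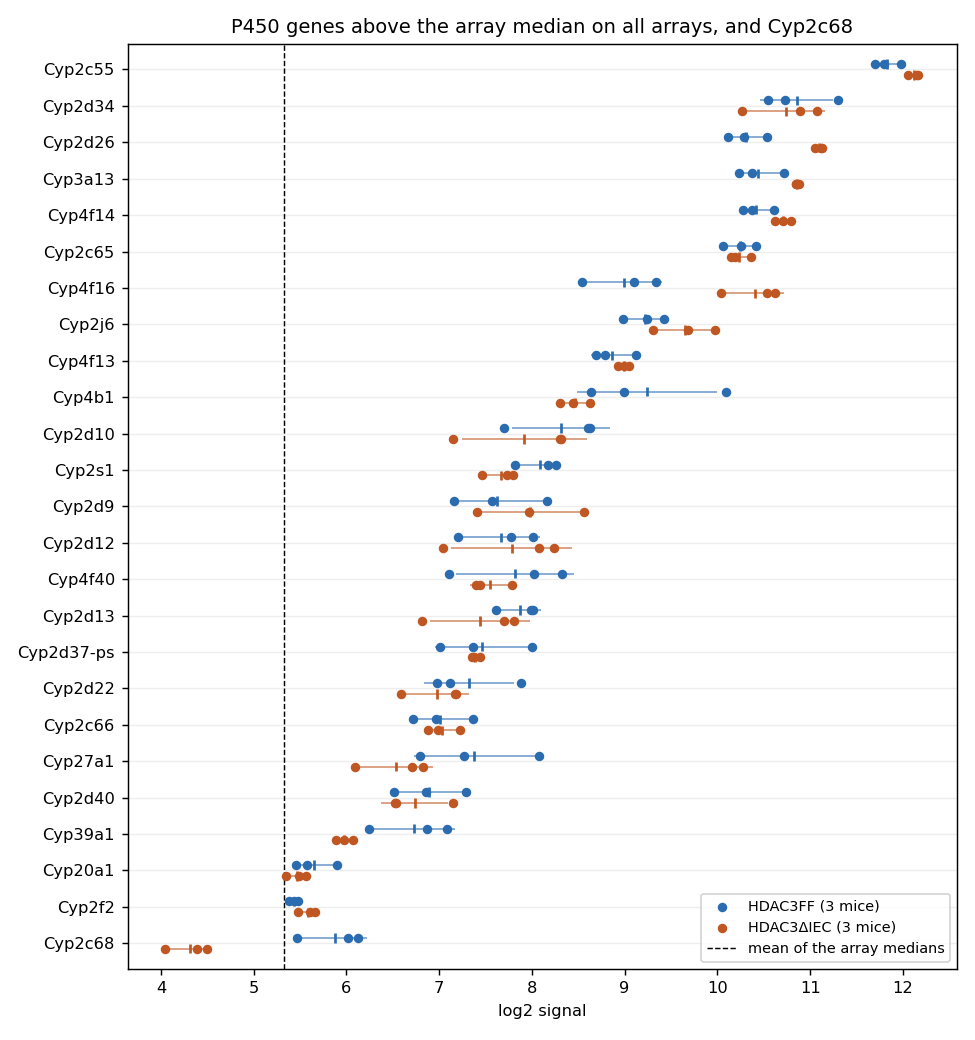
Log2 signals of the 24 P450 genes above the array median on all arrays, and of Cyp2c68, are plotted with 1 point per mouse, vertical ticks at group means and horizontal bars of 1 SD (n = 3 each), with a dashed line at the mean of the array medians (5.33). Cyp2c68, Cyp2d26 and Cyp4f16 show the most widely separated groups. Groups of Cyp2c55, Cyp3a13, Cyp4f14, Cyp4b1, Cyp2s1 and Cyp39a1 also do not overlap, with narrower gaps. Cyp2d10, Cyp2d9 and Cyp2d12 show mice of each group spread over about the same range.

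Among the fatty acid and eicosanoid enzymes outside the Cyp2c genes, no gene passed the test, and Cyp4f16 came closest. Enzymes of the Cyp4f group hydroxylate leukotriene B4 and related lipids at the end of the chain. Cyp4f16 read 8.54, 9.10 and 9.34 in HDAC3FF and 10.63, 10.54 and 10.04 in HDAC3ΔIEC, all higher, with means of 8.99 ± 0.41 and 10.40 ± 0.32 (SD, n = 3 each). Its log2 fold change of 1.41 ± 0.23 (SE) was the largest positive value of the 85, at a limma adjusted p of 0.0563. The gene passed in 5 of 14 alternatives, among them quantile normalization (adjusted p = 0.0487) and the omission of HDAC3FF replicate 3 (adjusted p = 0.0232), and over all alternatives its adjusted p ran from 0.0157 to 0.241.

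Cyp4f14, which inactivates leukotriene B4 in the mouse, read 10.27, 10.37 and 10.61 in HDAC3FF and 10.62, 10.80 and 10.71 in HDAC3ΔIEC. The groups touched without overlap, at a difference of 0.29 ± 0.11 (log2, SE, limma adjusted p = 0.385). Cyp4f13 differed by 0.12 ± 0.12, Cyp4f40 by -0.27 ± 0.30 and Cyp4f41-ps by 0.22 ± 0.16, and the dim Cyp4f15, Cyp4f18 and Cyp4f39 lay between -0.01 and 0.16. Cyp4b1, which hydroxylates fatty acids and some toxins, read 8.99, 8.64 and 10.09 in HDAC3FF and 8.44, 8.31 and 8.63 in HDAC3ΔIEC. The HDAC3ΔIEC signals were lower without overlap, and the value of -0.78 ± 0.34 (SE, limma adjusted p = 0.456) became -0.36 without HDAC3FF replicate 3, which carries the highest signal. Cyp2j6, an arachidonic acid epoxygenase of the gut, differed by 0.43 ± 0.19 with overlapping groups (limma adjusted p = 0.448). The 5 Cyp4a genes, whose hepatic forms are targets of PPARα (Cyp4a10, Cyp4a12a, Cyp4a12b, Cyp4a14 and Cyp4a31), were below the median throughout, with values from -0.05 to 0.20. Cyp2j5, Cyp2j9, Cyp2j11, Cyp2j12 and Cyp2j13 had values from -0.04 to 0.18, and the fatty acid hydroxylases Cyp2u1 and Cyp4x1 had -0.09 ± 0.08 and 0.04 ± 0.10.

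No sterol, bile acid or vitamin D gene of the family passed, though the largest differences here were negative. Cyp27a1, the mitochondrial sterol hydroxylase that opens the alternative route to bile acids, read 6.79, 7.27 and 8.08 in HDAC3FF and 6.82, 6.70 and 6.09 in HDAC3ΔIEC. Its groups overlapped at their border, with a difference of -0.84 ± 0.33 (log2, SE, limma adjusted p = 0.410), which was -0.49 without HDAC3FF replicate 3. Cyp39a1, which hydroxylates oxysterols, read 6.87, 7.08 and 6.24 in HDAC3FF and 5.88, 6.07 and 5.97 in HDAC3ΔIEC. These groups did not overlap, and the value of -0.75 ± 0.20 (SE) did not pass (limma adjusted p = 0.194), while without HDAC3FF replicate 3 it was -1.00 and passed at 0.0109. Cyp2r1, which starts the activation of vitamin D, read 4.59, 4.52 and 4.16 in HDAC3FF and 3.87, 3.62 and 3.75 in HDAC3ΔIEC. All its signals were below the array medians, and the difference of -0.68 ± 0.13 (SE) did not pass (limma adjusted p = 0.0910), although it passed without HDAC3FF replicate 3, at 0.0192. Cyp27b1, the enzyme that completes that activation, was dim and differed by -0.01 ± 0.09.

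The steps of bile acid and steroid synthesis that belong to liver and endocrine glands gave dim signals and small differences. Cyp7a1, the rate-limiting enzyme of bile acid synthesis, differed by -0.07 ± 0.09, Cyp7b1 by 0.10 ± 0.09, and Cyp8b1, which is needed for cholic acid, by -0.12 ± 0.09, with groups that did not overlap. Cyp46a1, the brain's cholesterol hydroxylase, differed by 0.11 ± 0.12. The steroid enzymes Cyp11a1, Cyp11b1, Cyp11b2, Cyp17a1 and Cyp21a1 had values from 0.02 to 0.19, and Cyp26a1, Cyp26b1 and Cyp26c1, which clear retinoic acid, from 0.03 to 0.07. Cyp20a1, an orphan enzyme, was just above the median and differed by -0.18 ± 0.13. Of the 58 members below the median throughout, 56 had log2 fold changes under 0.3 in size, and the 95% confidence intervals of these 56 reached from -0.33 at the lowest to 0.57 at the highest.

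No measured gene on a list for the supply of electrons and haem to the P450 enzymes passed. P450 oxidoreductase, the electron donor named above, was not among the measured genes of this list, so its response is not shown. The list had 24 redox partners and genes of haem synthesis and breakdown, of which 20 were measured. In limma 0 passed the adjusted threshold and 5 had an unadjusted p under 0.05. The median log2 fold change was 0.01, as over all genes. Alas1, the rate-limiting enzyme of haem synthesis, differed by 0.57 ± 0.11 (SE, limma adjusted p = 0.0793), and Alad, the next enzyme of that pathway, by 0.46 ± 0.13 (0.228).

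Of 26 listed receptors and factors that regulate P450 genes, 25 were measured, 1 rose, 1 fell and 23 did not pass, with a median of 0.06. Hnf4g, which encodes the nuclear receptor HNF4γ of the gut epithelium, read 8.97, 8.76 and 8.59 in HDAC3FF and 7.73, 7.05 and 7.06 in HDAC3ΔIEC. It fell by 1.49 ± 0.20 (log2, SE, limma adjusted p = 0.0334), whereas its relative Hnf4a differed by -0.06 ± 0.20. Nr0b2, the corepressor SHP of bile acid feedback, rose by 0.72 ± 0.10 (limma adjusted p = 0.0383) with all signals below the array medians. Nr1i2, which encodes PXR, differed by 0.53 ± 0.12 (0.128), Nr1i3, which encodes CAR, by -0.14 ± 0.09, and Ahr by 0.07 ± 0.13. With 1 array left out, Hnf4g passed without HDAC3FF replicate 3 or HDAC3ΔIEC replicate 1 and Nr0b2 without HDAC3FF replicate 3, and neither passed without any of the other arrays (adjusted p up to 0.147 and 0.181). The relation of Hnf4g or Nr1i2 to single P450 genes was not tested.

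Of 21 listed eicosanoid enzymes outside the P450 symbols, 20 were measured, 1 rose, 1 fell and 18 did not pass, with a median of -0.01. Ephx2, the soluble epoxide hydrolase that opens the epoxides made by Cyp2c and Cyp2j enzymes, read 7.48, 7.70 and 8.59 in HDAC3FF and 6.20, 6.07 and 5.42 in HDAC3ΔIEC, and fell by 2.03 ± 0.32 (log2, SE, limma adjusted p = 0.0481). Ephx1, the microsomal hydrolase of foreign epoxides, rose by 0.57 ± 0.08 (limma adjusted p = 0.0402) at signals below the array medians. Tbxas1 and Ptgis, the thromboxane and prostacyclin synthases, are P450 enzymes without a Cyp symbol and differed by -0.03 ± 0.09 and 0.07 ± 0.11. Ephx1 and Ephx2 passed without HDAC3FF replicate 3 and not without any other 1 array (adjusted p up to 0.196 and 0.181).

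Marker genes of some cell types moved beside these values, and their part in the P450 values was not tested. Of 10 enteroendocrine genes 2 rose, Insl5 and Pyy (3.07 ± 0.28 and 2.22 ± 0.33, log2, SE), with Chgb at 0.58 ± 0.25. On that list 6 genes were higher without overlap and 1 lower, Pcsk1 (-0.32 ± 0.10), and the mean signal over the list was 6.86 to 7.47 in HDAC3FF and 8.33 to 8.79 in HDAC3ΔIEC. Of 13 measured myeloid genes 1 fell, C1qa (-1.71 ± 0.19), with Cd14 at -0.40 ± 0.16 and list means of 4.76 to 4.81 and 4.62 to 4.75. The partner genes C1qb and C1qc of the same complex were at 0.07 ± 0.10 and -0.11 ± 0.11, and Cd68 (0.51 ± 0.13) and Itgax (0.14 ± 0.08) were higher without overlap and did not pass. In limma, 0 genes passed among 9 measured hepatocyte, 14 small intestinal enterocyte and 8 measured colonocyte genes, where 2, 7 and 4 had an unadjusted p under 0.05. The hepatocyte list had means of 5.61 to 5.78 in HDAC3FF and 5.24 to 5.42 in HDAC3ΔIEC, with Ttr at -1.77 ± 0.30, Pck1 at -0.95 ± 0.18 and the defining gene Alb below the array medians on every array. The small intestinal list had means of 8.22 to 8.53 and 8.38 to 9.28, with Fabp2 at 0.06 ± 0.10 and Fabp6 at 2.23 ± 0.51, and 5 members were higher and 2 lower without overlap, the 2 being Alpi (-1.01 ± 0.40) and Apob (-0.62 ± 0.23). The colonocyte list had means of 10.32 to 10.58 and 9.78 to 10.17, with Car1 at 0.17 ± 0.08 and Car4 at -0.10 ± 0.22. In it 2 members were higher without overlap, with Aqp8 at 0.69 ± 0.22, and 3 lower, Slc37a2 (-2.00 ± 0.41), Ces1g (-1.99 ± 0.36) and Slc26a3 (-0.44 ± 0.08). Of 12 measured lymphoid, 12 fibroblast and muscle and 8 endothelial genes 0 passed in limma, where 1, 1 and 0 had an unadjusted p under 0.05. These lists read 4.14 to 4.24, 4.89 to 5.11 and 4.35 to 4.48 on average over both groups, with Ighm at -0.12 ± 0.11, Cd7 at 0.02 ± 0.09, Tagln at 0.27 ± 0.15, Vim at 0.49 ± 0.19, Lyve1 at 0.21 ± 0.15 and Cldn5 at 0.10 ± 0.09. With 1 array left out, Insl5 lost its call without HDAC3FF replicate 1 or HDAC3ΔIEC replicate 2 (adjusted p up to 0.0660), C1qa without either of these or HDAC3ΔIEC replicate 3 (up to 0.123), and Pyy without any array but HDAC3FF replicate 3 (up to 0.170).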

How the data were processed

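RNA of sorted large intestinal epithelial cells was extracted with Trizol and biotin-labelled, per the labels' protocols, and each of the 6 mice has its own Affymetrix array. The values the authors deposited lie on a log2 scale, as read from their range. They were made with Affymetrix Power Tools, per the submitters' processing notes. The version, background correction and normalization method were not given in the sources used here. Of 24939 probe sets, 21105 name 1 gene, 1254 several and 2580 none. Symbols came from the platform annotation, of which 21022 were matched through Entrez numbers to RefSeq GRCm38.p6 with 0 symbols changed. The values were used as deposited.

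The genotypes were compared by limma 3.58.1 (R 4.3.3, two-sided, no covariate), with Benjamini-Hochberg adjustment over 19533 genes and a threshold of 0.05, and the code was tested on simulated data. Standard errors are moderated, with 3.26 prior degrees of freedom. Replicates are separate mice, per the series' design text. Tables and figures used Python 3.11.15 and matplotlib 3.10.9. Replicate numbers occur in both genotypes, but same-numbered arrays did not deviate together, so no block was used.

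Values on every array are given for members that passed, for those above the array median with an unadjusted p under 0.05, and for the 5 brightest. Other members are given by family, as the largest differences, as genes whose groups do not overlap or by range. Companion lists are given by called genes or the 2 smallest p, and marker lists by the 2 brightest genes. Beyond these rules, every array value of Cyp2c65, Cyp2c67, Cyp2r1 and Cyp4b1 is given, and Cyp3a11, Hnf4a, Nr1i2, Nr1i3, Ahr, Tbxas1, Ptgis, Epcam, Alb, Insl5, C1qb, C1qc, Cd68, Itgax, Alpi, Apob, Aqp8, Slc37a2, Ces1g, Slc26a3 and Pcsk1 are named, for their roles or after their values were seen. Members and lists were chosen with earlier results of these data known. Alternatives were a replicate block, omission of each array, quantile normalization, median centring, a filter on dim genes, the mean of all probe sets, adjustment over all probe sets, an intensity trend and array weights.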

Additional observations from a re-analysis of the deposited data

How the results depend on the processing

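The 2 called P450 genes became 1 with adjustment over all probe sets (Cyp2c68 passing), 4 with an intensity trend and 5 with array weights, and 0 to 6 with 1 array left out, the 6 being without HDAC3FF replicate 3 and including Cyp3a13, Cyp4f16, Cyp2r1 and Cyp39a1. Over all genes the 137 calls became 90 with adjustment over all probe sets, 357 with array weights and 13 to 430 with 1 array left out. Of the P450 genes, 17 had groups that did not overlap, and the number was 8 of 24 with the filter on dim genes (33.3%, against 19.8% of all genes kept) and 21 to 31 with 1 array left out (24.7% to 36.5%, against 23.6% to 31.7% of all genes, since fewer arrays overlap less often). With the replicate number as a block, 0 P450 genes and 12 of all genes passed, 11 of them among the 137, and Cyp2c68 and Cyp2d26 had adjusted p of 0.120 and 0.134. The labels give same-numbered arrays only the number in common, and their deviations correlated at -0.02, -0.07 and -0.20. Whether such mice shared a litter or batch was not tested. These correlations cannot show it, since deviations from a mean of 3 arrays are tied to each other. The log2 fold change of Cyp2d34, which never passed, reversed to 0.11 without HDAC3FF replicate 3, 0.12 without HDAC3ΔIEC replicate 3 and 0.11 with array weights, in a range from -0.28 to 0.12 with 1 array left out. Cyp2d26 no longer passed with adjustment over all probe sets. Of 193 values of 14 named genes under the 14 alternatives, 167 kept direction and side of the threshold, 12 lost a call, 11 gained one and 3 reversed. The number above the median stayed at 24 or 25, and the median log2 fold change of the 85 stayed between 0.01 and 0.05. With the filter on dim genes, which keeps 24 members, the median was -0.04. Apart from fewer arrays or genes, the cause of these shifts was not tested. The number of arrays and the unmarked background limit what can be said of the dim genes.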
